A study of Ursus arctos with 12 samples.

Results

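The 10 core circadian clock genes were read out in skeletal muscle of hibernating and active brown bears. They were chosen by gene symbol from the 30249 genes of the count table and comprised the activators ARNTL (BMAL1), CLOCK and NPAS2, the repressors PER1, PER2, PER3, CRY1 and CRY2, and the REV-ERB receptors NR1D1 and NR1D2. All 10 were among the 17290 genes with at least 30 reads over the libraries. Biopsies came from the vastus lateralis, a thigh muscle, of 6 free-ranging brown bears (Ursus arctos) aged 2 to 3 years, numbered 1305, 1316, 1317, 1509, 1511 and 1512. Each bear was captured and anesthetized during hibernation in February (winter) and again during its active period in June (summer), which gave 12 libraries, 6 per season, with no other treatment or genotype. The bears lived wild, so food, light and activity differed between seasons together with hibernation. The hour at which each biopsy was taken and the sequencing lane of each library are not given in the sources used here, so hour or lane and season cannot be told apart.

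In most cells of the body, ARNTL pairs with CLOCK or NPAS2 and binds E-box elements to switch on the PER, CRY and NR1D genes. PER and CRY proteins then shut this pair down, while the NR1D receptors repress ARNTL and the ROR receptors activate it, which closes a loop of about a day. In skeletal muscle of rodents and humans the loop runs daily, with ARNTL mRNA peaking at roughly the opposite phase to PER and NR1D mRNA, and it times genes of fuel use and contraction.

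CRY2, whose protein represses the CLOCK and ARNTL pair, was the member with a clear seasonal difference, at nearly double the level in winter (fold change 1.97) and higher in winter in 6 of 6 bears. The other 9 members did not pass the edgeR test with season as the only term, which does not pair the libraries of a bear. Several of them, though not PER3, differed widely between bears within a season. ARNTL was higher in winter in 5 of 6 bears. It did not pass with season as the only term in edgeR or DESeq2, and passed in limma voom and when each bear was compared with itself. In summer, ARNTL and PER2 mRNA levels were spread over a 14.0-fold and a 9.09-fold range between bears, against 2.29-fold and 1.73-fold in winter.

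Depth was 20191068 to 27283155 reads per library in summer and 16742406 to 32140160 in winter, and the members drew from 31 reads (ARNTL, bear 1511 in summer) to 6954 reads (NR1D2) in a library. Levels are given as CPM, edgeR's read counts scaled to library size by TMM, and are compared within a gene only, since no gene lengths were used. The seasons were compared by the quasi-likelihood test of edgeR with season as the only term. The libraries of a bear were thus paired only where the replicate block is named. Adjustment of p-values was by Benjamini-Hochberg over all 17290 genes, and a gene was called at an adjusted p below 0.05. The second principal component of all genes set the winter library of bear 1509 (98.6) apart from the other 11 (8.16 or less), so values without it are given where it bears on a result. The 12 skeletal muscle markers summed to 127724 to 203323 CPM in summer and 135449 to 177296 CPM in winter. Singly, 2 of the 12 were called higher in winter and 4 lower, beside 19.6% and 19.9% of all genes. Markers of other cells in the biopsy moved with season. The 5 endothelial markers summed to 577 to 916 CPM in summer and 381 to 449 CPM in winter, the 5 fibroblast markers to 3063 to 7897 CPM and 228 to 1282 CPM, and the 4 macrophage markers to 47.3 to 97.2 CPM and 35.1 to 62.2 CPM. Their part in the results below was not tested, and in bulk muscle fewer cells of a type and less RNA per cell cannot be told apart.

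**Figure D1:**
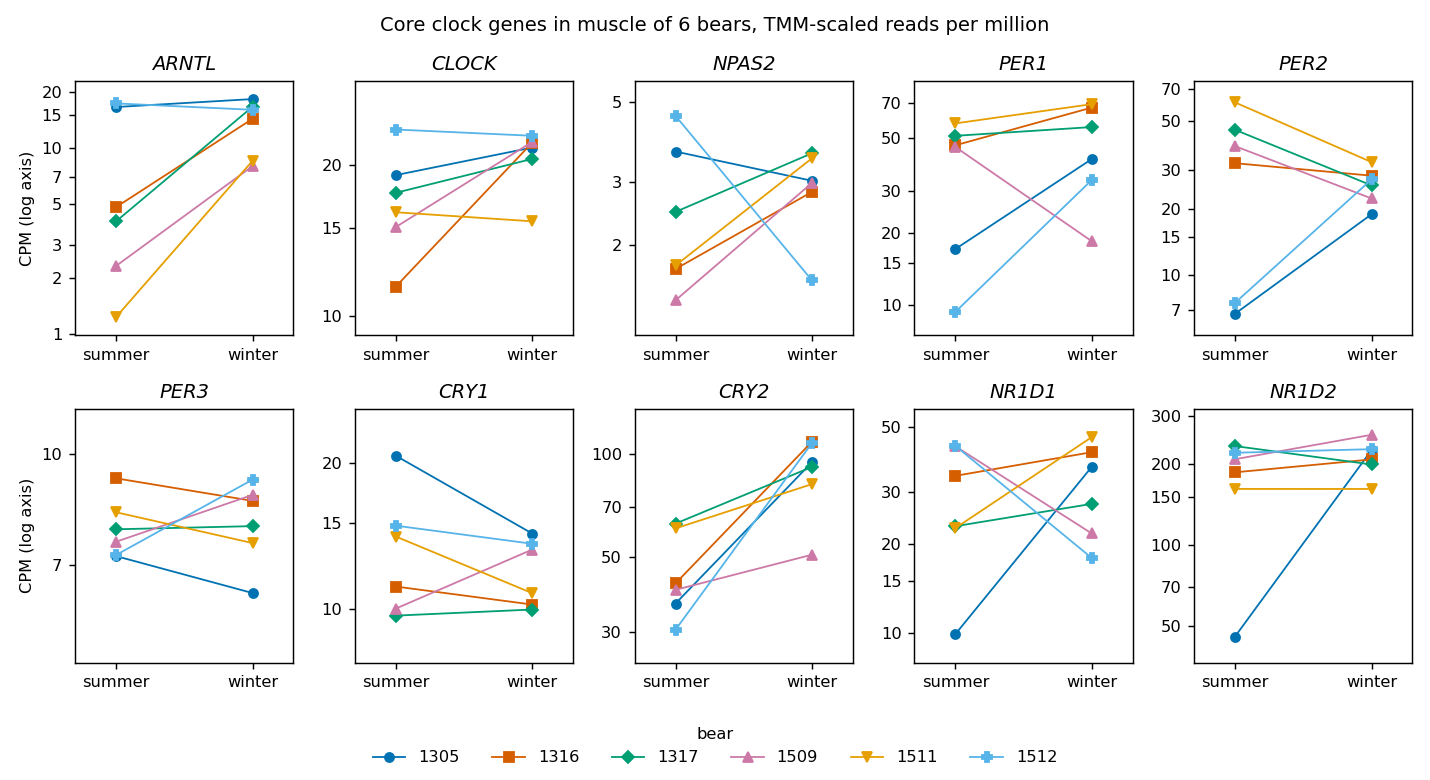
Levels of the 10 core clock genes (CPM after TMM scaling, log axis, 1 panel per gene) in summer and winter, with a line joining the libraries of each of the 6 bears. CRY2 lines all run upward to winter. ARNTL and PER2 start over a wide summer range, with bears 1305 and 1512 apart from the other 4, and end over a narrower range in winter.

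Among the activators, ARNTL, the partner that CLOCK and NPAS2 both need, had a lowest, median and highest level of 1.24, 4.43 and 17.4 CPM in summer and of 8.0, 15.2 and 18.3 CPM in winter. The largest gap in summer, 1.77 of a log2 range of 3.72, set 2 libraries above the other 4. Bears 1305 and 1512 stood at 16.6 and 17.4 CPM, within the winter range, and the other 4 bears stood at 1.24 to 4.82 CPM, below every winter library. The log2 difference between the seasons of a bear was 0.14 in bear 1305, 1.56 in 1316, 2.02 in 1317, 1.74 in 1509, 2.70 in 1511 and −0.11 in 1512 (mean 1.34 ± 1.10, SD, n = 6). Those 4 bears with little summer ARNTL thus accounted for the seasonal difference, and the remaining pair differed between seasons by 0.14 or less on the log2 scale. With season as the only term, edgeR gave a log2 fold change of 0.82 (SE 0.53, 95% interval −0.31 to 1.95, adjusted p = 0.235). With the bear as a replicate block it gave 1.29 (SE 0.34, 95% interval 0.53 to 2.05, edgeR adjusted p = 0.0122). Across 15 other settings, the block included, the adjusted p of ARNTL ranged from 9.1e-05 to 0.445, and 3 of them called it higher. The 3 were edgeR and DESeq2 with the replicate block, the only settings that paired libraries by bear, and limma voom with season only. All the settings that did not call it had season as the only term.

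CLOCK, a histone acetyltransferase and the main partner of ARNTL, lay at 11.4, 16.9 and 23.6 CPM (lowest, median, highest) in summer and at 15.5, 22.0 and 22.9 CPM in winter. The seasons overlapped: 5 of the winter libraries were at 20.6 CPM or above, and bear 1511 alone was lower. Its log2 fold change was 0.28 (SE 0.16, 95% interval −0.05 to 0.62, edgeR adjusted p = 0.167), with 4 of 6 bears higher in winter. NPAS2, which can stand in for CLOCK, had few reads (32 to 117 per library) and lay at 1.41, 2.12 and 4.58 CPM in summer and 1.6, 3.00 and 3.60 CPM in winter. Bear 1512 held both the highest summer and the lowest winter level of NPAS2, and the seasons overlapped throughout (log2 fold change 0.16, SE 0.30, edgeR adjusted p = 0.701). Like ARNTL, NPAS2 was highest in summer in bears 1512 and 1305, at 4.58 and 3.64 CPM against 2.48 CPM or less in the other 4.

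Of the PER genes, whose proteins carry the CRY proteins into the nucleus, none passed the season test. PER1, the PER gene that also answers quickly to hormones and cyclic AMP, had 9.31, 46.2 and 57.5 CPM in summer and 18.4, 48.1 and 69.2 CPM in winter. Its 2 low summer libraries were those of bears 1512 (9.31 CPM) and 1305 (17.1 CPM), the bears with high ARNTL. Its low winter library was that of bear 1509, with 18.4 CPM against 33.3 CPM or more in the other 5. PER1 was higher in winter in 5 of 6 bears, and the log2 fold change was 0.32 (SE 0.40, 95% interval −0.54 to 1.19, edgeR adjusted p = 0.551) with all libraries and 0.49 (edgeR adjusted p = 0.323) without the winter library of bear 1509.

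PER2, a core repressor whose loss disturbs the daily rhythm in mice, showed the reverse arrangement to ARNTL in summer. Its lowest, median and highest levels were 6.70, 35.4 and 60.9 CPM in summer and 18.9, 26.4 and 32.7 CPM in winter. Bears 1305 and 1512 had 6.70 and 7.51 CPM in summer, below every winter library, whereas bears 1317, 1509 and 1511 had 38.6 to 60.9 CPM, above every winter library. From summer to winter PER2 moved in opposite directions, by log2 differences of 1.49 and 1.85 in 1305 and 1512 and of −0.90 to −0.19 in the other 4. The seasons differed little on average, with a log2 fold change of −0.31 (SE 0.43, 95% interval −1.23 to 0.62, edgeR adjusted p = 0.602) and, with the replicate block, of 0.05 (adjusted p = 0.921). PER3, the least essential PER gene in mice, was nearly flat, at 7.21, 7.71 and 9.25 CPM in summer and 6.41, 8.27 and 9.21 CPM in winter. No bear changed PER3 by more than 0.34 on the log2 scale, and the 95% interval of its log2 fold change (0.03) was −0.23 to 0.30.

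CRY1, the stronger repressor of the CRY pair, lay at 9.68, 12.6 and 20.7 CPM in summer and at 9.97, 12 and 14.3 CPM in winter. Bear 1305 had the highest level in either season, the seasons overlapped, and the log2 fold change was −0.16 (SE 0.18, 95% interval −0.55 to 0.24, edgeR adjusted p = 0.523). CRY2 lay at 30.6, 40.9 and 62.6 CPM in summer and at 50.7, 93.3 and 109 CPM in winter. In winter 5 of the 6 libraries, at 81.7 CPM or more, exceeded every summer library, and only the winter library of bear 1509 (50.7 CPM) lay below the summer levels of bears 1317 and 1511 (62.6 and 60.6 CPM). Within a bear the log2 difference of CRY2 was 1.38 in 1305 and in 1316, 0.55 in 1317, 0.34 in 1509, 0.43 in 1511 and 1.82 in 1512. The log2 fold change was 0.98 (SE 0.21, 95% interval 0.54 to 1.42, edgeR adjusted p = 0.00212), and it was 1.10 (edgeR adjusted p = 0.000321) without the winter library of bear 1509. CRY2 passed in each of the 15 other settings, with adjusted p from 4.26e-06 to 0.0144. CRY1 thus had a median of 0.258 reads per read of CRY2 in summer (range 0.155 to 0.566) and of 0.129 in winter (range 0.0938 to 0.261).

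NR1D1 (REV-ERBα), a heme receptor that represses ARNTL, had 9.87, 28.6 and 43.2 CPM in summer and 17.9, 32.0 and 46.3 CPM in winter. No direction was shared by the bears: the log2 difference was 1.88 in bear 1305 and 1.03 in 1511 but −0.98 in 1509 and −1.26 in 1512, and the log2 fold change was 0.12 (SE 0.32, edgeR adjusted p = 0.792). The related receptor NR1D2 (REV-ERBβ), which shares targets with NR1D1, had 45.9, 197 and 232 CPM in summer and 161, 216 and 256 CPM in winter. A single library set the summer range, bear 1305 at 45.9 CPM, while the other 5 summer libraries had 161 to 232 CPM and overlapped the winter ones. The log2 fold change of NR1D2 was 0.28 (SE 0.28, 95% interval −0.32 to 0.87, edgeR adjusted p = 0.455). The 2 bears with high summer ARNTL differed here, since bear 1305 had the lowest summer NR1D1 and NR1D2 levels and bear 1512 had 43.2 CPM of NR1D1, the highest in summer, and 219.6 CPM of NR1D2.

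Counted over the list, 1 of the 10 members was called in either direction, where 39.5% of all tested genes were, and that 1 (CRY2) was called higher, as were 19.6% of all genes. No member was called lower, against 19.9% of all genes, and none was lower at an unadjusted p under 0.05 in edgeR or called lower by DESeq2 or limma voom. With the bear as a replicate block, 2 members (CRY2 and ARNTL) were called higher, beside 19.6% of all genes. The median log2 fold change of the members was 0.22 and that of all genes was −0.00. CRY2 was the 1 member with the same direction in 6 of 6 bears, which 37.4% of all genes had.

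**Figure D2:**
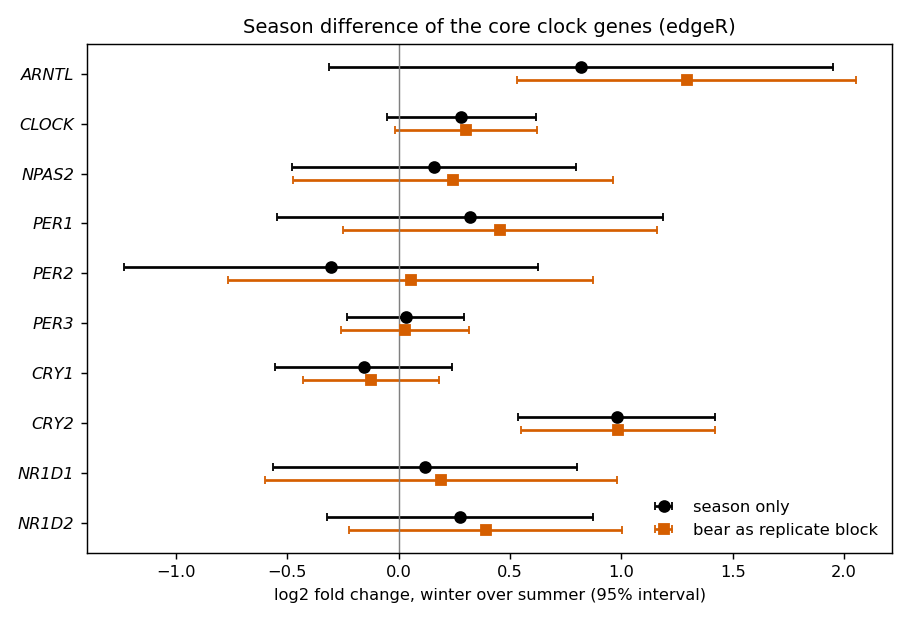
Log2 fold change of each core clock gene, winter over summer (x axis), with 95% intervals from edgeR with season as the only term (circles) and after adding a replicate block for the bear (squares). The interval of CRY2 lies above 0 in both fits (0.54 to 1.42 with season only), that of ARNTL only with the block (0.53 to 2.05), and those of the other 8 genes span 0 in both.

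The spread between bears was compared between seasons as the SD of log2 CPM over the 6 bears. It was larger in summer for 9 of the 10 members, where 44% of 11365 genes (those at or above a mean of 1 log2 CPM) had the larger SD in summer. CRY2, counted among the 9, was nearly equal, with an SD of 0.410 in summer and 0.409 in winter. ARNTL had an SD of 1.49 in summer and 0.51 in winter, and PER2 of 1.37 and 0.27. NR1D2 had 0.89 and 0.23, PER1 1.06 and 0.73, NR1D1 0.80 and 0.54, and NPAS2 0.65 and 0.41. For scale, the median gene had 0.248 in summer and 0.268 in winter, and the summer SDs of ARNTL and PER2 exceeded those of 99.6% and 99.4% of the genes. In winter PER2 was at 52.0% of this ranking and NR1D2 at 37.3%, near or below the middle of all genes, whereas PER1 (95.3%), NR1D1 (88.9%) and ARNTL (87.5%) stood among the more variable ones. PER3 was the exception, with an SD of 0.14 in summer and 0.19 in winter, both among the steadier genes.

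The seasons were then swapped within each bear, in all 64 arrangements, in an exact two-sided permutation test of the distance from the season median, which cannot give a p below 0.0313. The exact p was 0.0625 for NPAS2, 0.0938 for PER2 and for CRY1, 0.125 for ARNTL and 0.375 to 0.875 for the other 6. None of the members passed 0.05 by the exact test. Of all 17290 tested genes, 1.5% passed it with the wider spread in summer. For PER2 the exact permutation p was 0.0313 with library totals or with distances from the season mean, and for NPAS2 with library totals. The winter minus summer difference in mean distance from the season median changed sign when a single bear was left out for 5 members. Leaving out bear 1305 brought it from −0.33 to 0.017 for NR1D2, from −0.14 to 0.028 for PER1, from −0.15 to 0.090 for NR1D1 and from 0.041 to −0.011 for PER3. Without bear 1512 it was 0.14 for PER1, and for CRY2 it went from −0.046 to 0.064 without bear 1317 and to 0.021 without bear 1511.

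**Figure D3:**
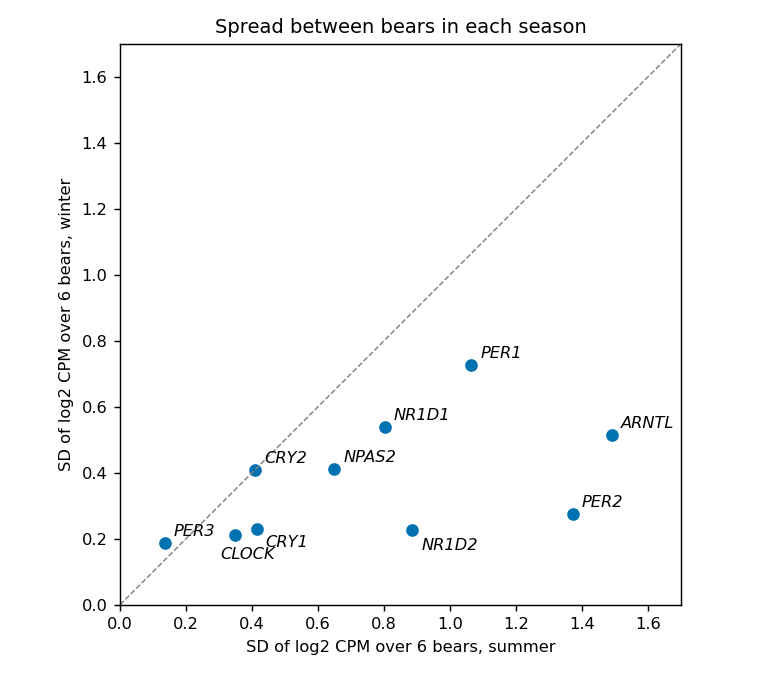
Standard deviation of log2 CPM over the 6 bears in summer (x axis) against winter (y axis), 1 point per core clock gene, with the line of equal spread. The points of ARNTL (1.49 and 0.51), PER2 (1.37 and 0.27) and NR1D2 (0.89 and 0.23) lie farthest below the line, CRY2 lies on it and PER3 above it.

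Read bear by bear, the summer libraries differed in several members at once. Bear 1305 in summer combined high ARNTL (16.6 CPM), NPAS2 (3.64 CPM) and CRY1 (20.7 CPM) with the lowest PER2 (6.70 CPM), NR1D1 (9.87 CPM) and NR1D2 (45.9 CPM) of the season. Bear 1512 in summer combined the highest ARNTL (17.4 CPM), CLOCK (23.6 CPM) and NPAS2 (4.58 CPM) with the lowest PER1 (9.31 CPM) and CRY2 (30.6 CPM). Bear 1511 was at the other end, with the lowest ARNTL (1.24 CPM) and the highest PER1 (57.5 CPM) and PER2 (60.9 CPM). ARNTL and PER2 were thus at opposite ends in these 3 libraries, while CLOCK (16.1 CPM) and NPAS2 (1.76 CPM) of bear 1511 lay inside their summer ranges. NR1D1 and NR1D2 were low together with PER2 in bear 1305 but not in bear 1512. In winter bear 1512, with 16.1 CPM of ARNTL and 27.3 CPM of PER2, lay within the range of the other 4 bears, which had 8.0 to 16.7 CPM of ARNTL and 22.3 to 32.7 CPM of PER2. Bear 1305 had the highest ARNTL (18.3 CPM) and the lowest PER2 (18.9 CPM) of the winter libraries. The ratio of PER1 to PER2 reads had a median of 1.21 in summer (0.943 to 2.55) and 2.13 in winter (0.825 to 2.36), the lowest being the winter library of bear 1509. That of NR1D2 to NR1D1 had a median of 5.26 in summer (4.65 to 10.1) and 6.69 in winter (3.49 to 12.6), so both ratios overlapped between seasons.

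ARNTL and PER2 were opposite across the libraries. The ratio of ARNTL to PER2 reads ran from 0.0203 in bear 1511 to 2.48 in bear 1305 in summer, a 122-fold range, and from 0.262 to 0.968 in winter, a 3.70-fold range. ARNTL to NR1D1 ran over 31.1-fold in summer (0.0540 to 1.68) and 4.85-fold in winter (0.185 to 0.895). After each gene's season mean was taken off, PER2 was the most opposite to ARNTL of 10344 named genes at or above that mean level (Pearson r = −0.90 over 12 libraries, a description that shares its libraries and bears). The value was −0.94 to −0.86 with any bear left out and −0.60 without the summer libraries of bears 1305 and 1512, so much of it came from those 2. PRCP, LONRF1, TNFAIP1 and ANGPTL2 followed PER2 at −0.86, −0.85, −0.84 and −0.81. The genes most like ARNTL were JADE1 (0.89), EXOSC1 (0.88), HOXA3 (0.85), NIPAL2 (0.85) and ADHFE1 (0.84), none of them a clock gene. Without the same 2 libraries these were 0.68, 0.77, 0.59, 0.82 and 0.71. NPAS2 ranked at position 108 (0.65), and PER1 at position 66 from the opposite end (−0.65), but without those 2 summer libraries their r was 0.00074 and 0.081.

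**Figure D4:**
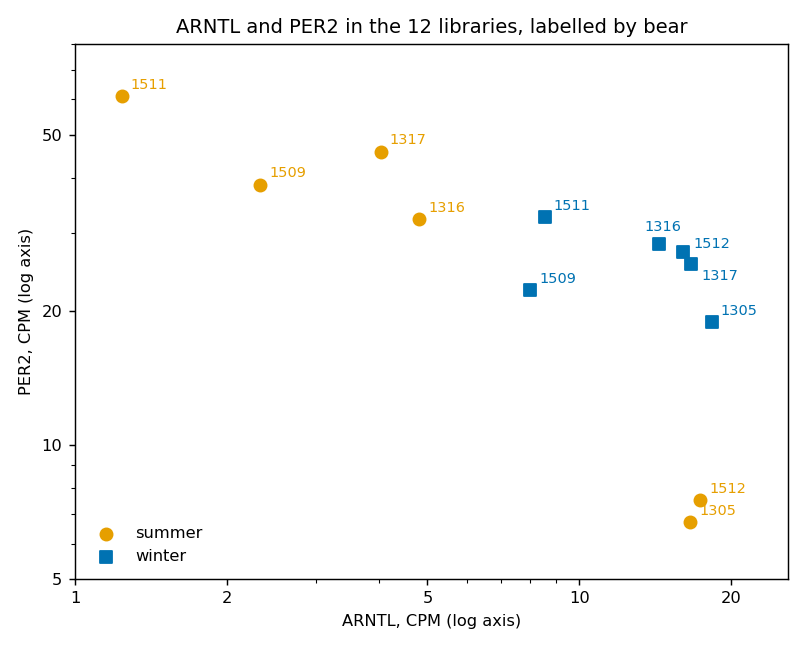
PER2 against ARNTL levels (CPM, both axes logarithmic) in the 12 libraries, labelled by bear. Summer points lie at the 2 ends, bears 1305 and 1512 with ARNTL at 16.6 and 17.4 CPM and PER2 at 6.70 and 7.51 CPM and the other 4 with ARNTL at 4.82 CPM or less, and the winter points lie between 8.0 and 18.3 CPM of ARNTL and 18.9 and 32.7 CPM of PER2.

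How NR1D1 ran with ARNTL was not settled, since the sign changed with the bears included. The r of the pair was −0.21 over the 12 libraries and −0.52 to 0.26 with any bear left out. It was 0.055 without the summer libraries of bears 1305 and 1512. The genes most like NR1D1 were MOB2 (0.83), REC8 (0.82), MESP1 (0.81), PIK3IP1 (0.81) and CIART (0.80), the last a clock repressor also known as CHRONO. Without those summer libraries these were 0.91, 0.63, 0.52, 0.71 and 0.68. The genes most opposite to NR1D1 were NIP7, CLDND1, P2RX4, SLC39A14 and KIAA1841, at −0.83 to −0.81. Without those summer libraries they were at −0.85 to −0.64.

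The wider set of 39 clock-linked genes, of which 37 were tested, had 9 called higher, 5 called lower and 23 not called, with a median log2 fold change of 0.04, where 19.6% of all tested genes were called higher and 19.9% lower. RORA, a nuclear receptor that activates ARNTL at the elements that NR1D1 and NR1D2 repress, had 1.80, 2.00 and 2.43 CPM (lowest, median, highest) in summer and 2.92, 3.98 and 7.49 CPM in winter. The seasons did not overlap, and the log2 fold change was 1.08 (SE 0.22, edgeR adjusted p = 0.00173). RORA was higher in winter in 6 of 6 bears, including bears 1305 and 1512, in which ARNTL had nearly the same level in both seasons.

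Of the 8 E-box and D-box factors, which the clock drives and some of which act back on it, 3 were called lower and 0 higher, beside 19.9% and 19.6% of all genes. DBP, a D-box activator and direct target of CLOCK and ARNTL, fell from 2.81, 10.9 and 16.0 CPM in summer to 3.13, 3.57 and 5.29 CPM in winter (log2 fold change −1.51, SE 0.31, edgeR adjusted p = 0.00185). DBP was lower in winter in 5 of 6 bears, and the exception was bear 1305, with 2.81 CPM in summer. HLF, a related D-box factor, was lower in 6 of 6 bears (−0.51, SE 0.18, edgeR adjusted p = 0.0407), but its adjusted p was 0.0652 to 0.0994 without bear 1305, 1316, 1317, 1511 or 1512. BHLHE40 (DEC1), an E-box repressor, was lower in 5 of 6 bears (−0.52, SE 0.20, edgeR adjusted p = 0.0461), with an adjusted p of 0.0506 with the replicate block and of 0.0667 to 0.157 without bear 1316, 1317, 1511 or 1512. CIART had 1.49 CPM in the summer library of bear 1305 and 4.62 to 12.9 CPM in the other 11 libraries. Its log2 fold change was −0.38 (edgeR adjusted p = 0.389) with all bears and −0.66 (edgeR adjusted p = 0.0152) without bear 1305. TEF (0.02), NFIL3 (0.25), BHLHE41 (0.21) and ARNTL2 (−0.15) were not called.

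**Figure D5:**
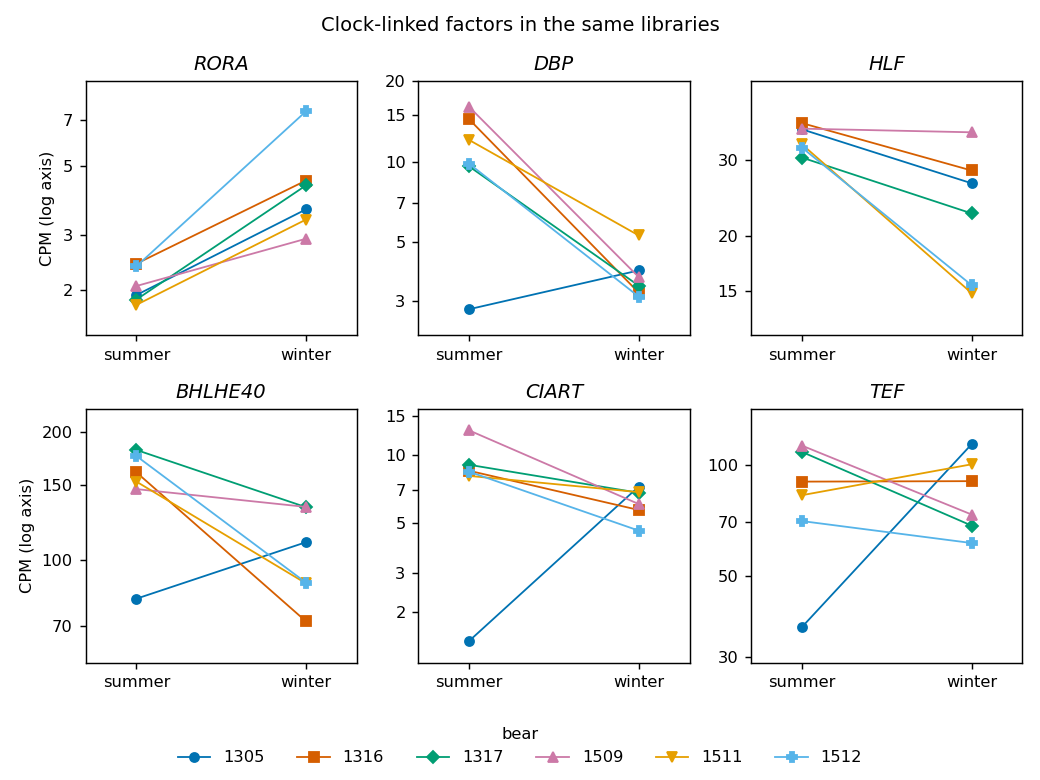
Levels of 6 clock-linked transcription factors (CPM after TMM scaling, log axis, 1 panel per gene) in summer and winter, with a line joining the libraries of each of the 6 bears. RORA lines all run upward to winter, DBP lines run downward except in bear 1305, and bear 1305 starts from the lowest summer level of DBP, BHLHE40, CIART and TEF.

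Among the enzymes that set the stability of PER and CRY proteins, CUL1, a scaffold of ubiquitin ligases, was called higher (log2 fold change 0.88, SE 0.15, edgeR adjusted p = 0.000429). Of the 10 tested kinases and phosphatases, CSNK2A2 was higher (1.16, SE 0.13, edgeR adjusted p = 2.97e-05). CSNK1D, which phosphorylates PER proteins, was lower (−0.31, SE 0.10, edgeR adjusted p = 0.0232; 0.0544 to 0.0946 without bear 1305, 1316, 1317 or 1509). The list grouped 10 genes, TIMELESS among them, as corepressors and chromatin factors. Of these, 4 were higher and 1 lower, beside the same shares of all genes (19.6% and 19.9%). The largest were SIRT1, a deacetylase that acts on PER2 and ARNTL (0.86, edgeR adjusted p = 0.000234), KDM5A (0.82, edgeR adjusted p = 0.000152) and TIMELESS (−0.77, edgeR adjusted p = 0.00705). TIMELESS drew 34 to 146 reads per library.

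PER1 also responds to cyclic AMP, serum and glucocorticoid, so 17 genes known to answer these signals were set beside it, 16 of them tested, with 3 called higher and 2 lower, near or below the shares of all genes (19.6% and 19.9%). Of the 8 glucocorticoid-responsive genes, PDK4, an inhibitor of glucose oxidation (2.38, SE 0.57, edgeR adjusted p = 0.00454), FKBP5, a chaperone of the glucocorticoid receptor (0.94, SE 0.26, edgeR adjusted p = 0.011), and ZBTB16 (0.59, edgeR adjusted p = 0.0334) were higher and KLF15 lower (−1.34, edgeR adjusted p = 0.00394). Of the 8 tested genes of cyclic AMP and serum response, NR4A3, an orphan nuclear receptor, was lower (−2.15, SE 0.64, edgeR adjusted p = 0.0162; 0.0567 without bear 1317). With the replicate block FOSB, ATF3 and NR4A1 were called lower too (edgeR adjusted p 0.00957, 0.0188 and 0.0445), which made 5 of 16 lower beside 21.2% of all genes. PER1, at log2 fold changes of 0.32 and 0.46 in the fits without and with the block, was called in neither.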

How the data were processed

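The authors prepared stranded poly-A libraries, aligned the reads with TopHat2 2.1.1 and Bowtie2 2.2.9 and counted them per gene with featureCounts 1.6.2, by the submitters' processing notes. The deposited values are these raw counts, not normalized. The authors' other data types were not used here. The clock members, the other lists and the rule for named genes (every member, and up to 3 called genes of largest change per list group) were chosen with earlier results of these data known. Some genes of the clock-linked list are included in its counts but not reported here by name.

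Genes with at least 30 reads over 12 libraries were kept. TMM scaling was applied to the counts, which were fitted with glmQLFit and glmQLFTest (edgeR 4.0.16, R 4.3.3) with season as the only term. Log2 CPM used a prior count of 2. Alternatives were the bear as replicate block, DESeq2 1.42.0 with and without it, limma voom 3.58.1, RLE, library totals, other filters, a stricter threshold and each bear left out; the winter library of bear 1509 alone was left out after seeing the data. Each animal gave a library in either season, by the paper's methods, and the 2 libraries of a bear deviated from the season means together (r = 0.0903 to 0.344). Spread was compared by an exact permutation test and read by its unadjusted p. Adjusted over all genes by Benjamini-Hochberg, 0 genes were below 0.05, and the smallest p could not pass unless most genes reached it. An adjustment over the members alone was planned but is not given. Correlations of ARNTL with other members over the 6 libraries of a season were planned but are not given. Whether the libraries of a season fall into clusters was not tested. The samples of a season were separate animals.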

Additional observations from a re-analysis of the deposited data

Results flagged for a closer look

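In 20 groups of 6 libraries (10 members in 2 seasons) the gap between an extreme library and its nearest neighbour, as a share of the range, was compared with Dixon's 95% critical value for 6 samples, which chance exceeds in about 1 of 20 groups. It was exceeded in 3. NR1D2 in summer was lowest in bear 1305 (0.775), with 45.9 CPM against 161 to 232 CPM in the other 5 bears. CLOCK in winter was lowest in bear 1511 (0.730), with 15.5 CPM against 20.6 to 22.9 CPM. NPAS2 in winter was lowest in bear 1512 (0.693), with 1.6 CPM, or 49 reads, against 2.81 to 3.60 CPM. Each was a different bear and gene.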

How the results depend on the processing

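The members called higher numbered 2 in place of 1 with the replicate block, with DESeq2 and the replicate block, and with limma voom. ARNTL was the added gene each time, and the cause was not tested. The replicate block changed the call of no other member. No member was called lower under any of the alternatives. The correlations of ARNTL within a season were not given under any setting. The season difference of PER2 turned positive with the replicate block (0.054), with DESeq2 and the block (0.077) and with limma voom (0.12). Library totals turned PER3 to −0.043 and TEF to −0.072. With each bear left out in turn the log2 fold change ranged from −0.031 to 0.068 for PER3, −0.12 to 0.39 for NR1D1, −0.25 to 0.17 for TEF and −0.47 to 0.15 for ARNTL2, none of them called.

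Of the clock-linked genes, 5 were called lower with all libraries, 2 under an adjusted p below 0.01 with the fold limits, and 2 to 5 without a bear (3 without 1316, 2 without 1317 and 3 without 1511). Without the winter library of bear 1509 they numbered 6. Of the genes that answer cyclic AMP, serum or glucocorticoid, 1 was called higher and 1 lower under the stricter limits, in place of 3 and 2, and 5 were lower with the replicate block, alone or in DESeq2.

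The winter minus summer difference in mean distance from the season median ranged, without a bear, from −0.48 to 0.14 for PER1, −0.011 to 0.084 for PER3, −0.22 to 0.064 for CRY2, −0.22 to 0.090 for NR1D1 and −0.42 to 0.017 for NR1D2. With library totals the exact permutation p reached 0.0313, the smallest possible, for PER2 and NPAS2, and with distances from the season mean for PER2.

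With 6 bears per season, the 95% intervals of the members ran from narrow in PER3 (−0.23 to 0.30) to wide in ARNTL (−0.31 to 1.95); where an interval spans 0, a difference was not detectable in that fit. The low counts of NPAS2 and of ARNTL in summer limit their precision further.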
